A study of Mus musculus with 12 samples.

Results

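The genes described here are 10 transcription factor genes that are activated in human T cell acute lymphoblastic leukemia (T-ALL), namely Tal1, Lyl1, Lmo1, Lmo2, Tlx1, Tlx3, Hoxa9, Mef2c, Nkx2-1 and Hhex. They were chosen by name and not by their values, although earlier results of these data were known. All 10 were found among the 51734 gene symbols of the series. The 9 tumor libraries came from thymus with T-ALL of mice in which doxycycline induced the receptor chain Il7r, through which thymocytes sense interleukin-7, from a tetracycline-inducible gene. The 3 control libraries came from thymus of healthy mice. The labels give strain F5 for both groups, and they name neither the promoter or cell type that drives the induced gene nor the age of the mice. They also do not say whether each library came from a separate animal, so each p-value is set against the spread among the samples at hand, part of which may be technical.

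Most normal thymocytes hold little or no RNA of these factors, although Lmo2, Lyl1, Hhex and Mef2c are counted below among genes of early thymic progenitors. In human T-ALL rearrangements or changed enhancers switch on 1 or a few of the factors in each patient. TAL1 and LYL1 are basic helix-loop-helix proteins that bind E proteins and displace their own partners. LMO1 and LMO2 are LIM-domain adaptors that bridge such helix-loop-helix pairs to other DNA-binding proteins through LDB1. TLX1, TLX3, NKX2-1, HOXA9 and HHEX are homeodomain proteins, and MEF2C is a MADS-box protein found in immature forms of the disease. The question was which of these genes, if any, had RNA above background in which tumor.

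Polyadenylated RNA was sequenced from all 12 libraries. Gene counts summed to between 11617558 and 34769677 in the tumors and between 8132929 and 12019665 in the controls. The libraries differ in composition: the mitochondrial share was between 31.6% and 69.3% for tumors 1 to 6, between 2.54% and 11.1% for tumors 7 to 9, and between 0.0948% and 6.73% for the controls. Olfactory and vomeronasal receptor genes (symbols starting with Olfr or Vmn), which thymocytes are not known to use, served as the background. Their median GC content was 39.4%, against 53.8% for the 10 genes. Density is the counts-per-million (CPM) value per kilobase of a gene's longest transcript. Its median over 1901 receptor genes lay between 0 and 0.136 for tumors 1 to 6, between 0.662 and 1.72 for tumors 7 to 9, and between 1.53 and 2.04 for the controls. Tumor 9 thus falls within the range of the controls, tumors 7 and 8 lie below it and tumors 1 to 6 lie lower still. Any difference of tumors 1 to 6 from the controls cannot be told apart from the difference in composition, and for tumors 7 and 8 a smaller such difference remains. Of 10 T cell identity genes, which define thymocytes, all 10 were above background in at least 4 of tumors 1 to 6. In tumors 7 to 9 and in the controls 0 of the 10 were. Only 0.449% to 0.627% of protein-coding genes were above background in those libraries, so this call could not check the thymus label there.

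Il7r, the induced gene, was used to check the labels. Its density was 8.64, 33.7, 62.6, 6.86, 21.9 and 8.83 CPM per kilobase in tumors 1 to 6, 1.58, 2.98 and 4.49 in tumors 7 to 9, and 1.96, 3.15 and 2.88 in the controls. It exceeded the receptor genes in each of tumors 1 to 6 and in no other library. Over all 9 tumors and 3 controls the mean difference in log2(CPM + 1), with CPM scaled by edgeR's trimmed mean factors (TMM), was 3.54 (exact two-sided permutation test, p = 0.0318, smallest possible 0.00455). With library totals the difference was 1.74 (exact p = 0.105), and on log2(TPM + 1), from the authors' transcripts-per-million (TPM) values, it was 1.03 (exact p = 0.177). In edgeR's test across all genes its log2 fold change was 5.41 (standard error 1.61, adjusted p = 0.128), and that p ran from 2.81e-08 to 1.00 over the alternatives.

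None of the 10 transcription factor genes was above the receptor-gene background in any tumor. A gene was called above background in a library where it had at least 10 estimated counts and a density over the 99th percentile of the receptor genes. By this rule 0 of 10 genes passed in each of the 9 tumors and each of the 3 controls. Among all 51734 genes, 4.02%, 5.39%, 11.3%, 8.56%, 12.7% and 15.3% passed in tumors 1 to 6. The share was 1.21%, 1.36% and 1.32% in tumors 7, 8 and 9 and 1.37%, 1.18% and 1.18% in controls 1, 2 and 3. Among protein-coding genes, 6.15% to 29.0% passed in a given one of tumors 1 to 6, 14.6% passed in at least 4 of them and 31.9% in at least 1. In tumors 7 to 9 and the controls only 0.449% to 0.627% of protein-coding genes passed, and Il7r did not. In those libraries the call thus says little about the 10 genes. The count of 0 of 10 stands beside these shares as a description of these genes only.

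**Figure D1:**
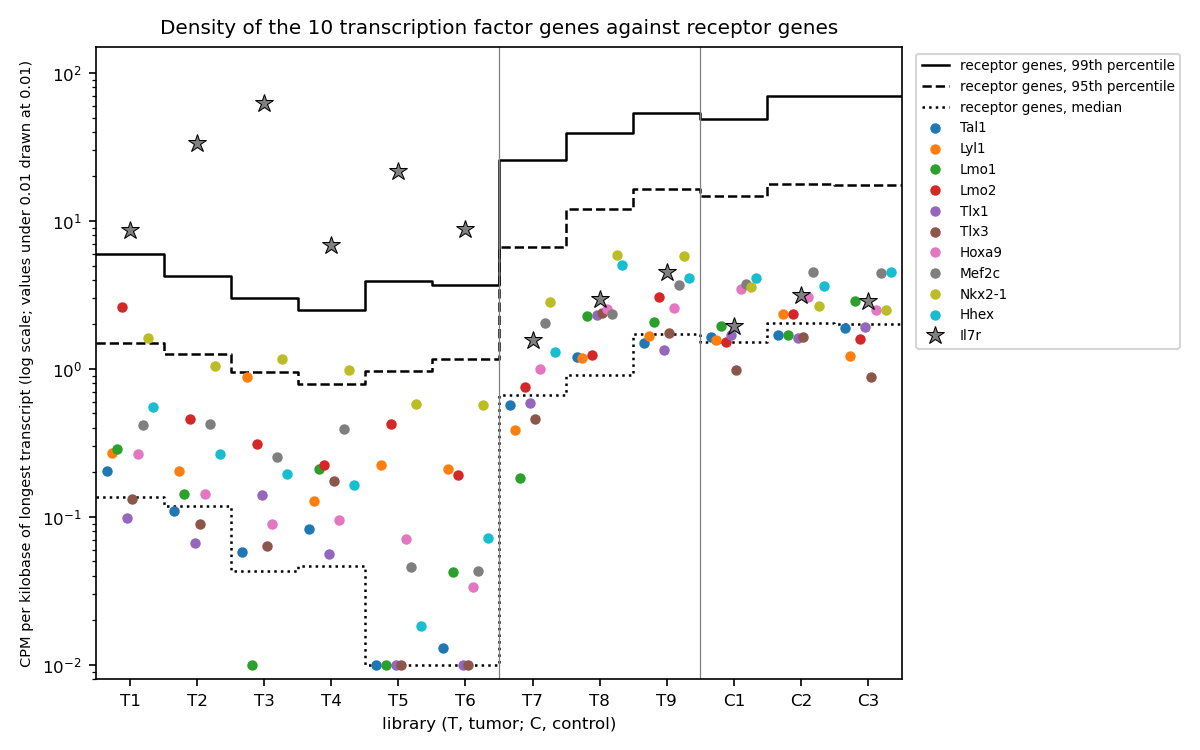
Density of each of the 10 genes and of Il7r (stars) in every library, in CPM per kilobase on a log scale, with the median, 95th and 99th percentile of 1901 receptor genes as stepped lines. The 10 genes lie under the 99th percentile in all 12 libraries, while Il7r lies above it in tumors 1 to 6 only.

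Below that threshold the genes were not alike. In tumors 1 to 6 the density of Nkx2-1 was above that of 90.1% to 96.2% of the receptor genes and the density of Lmo2 above that of 79.4% to 97.3%. For Tal1 this share was 0% to 64.7% and for Tlx1 0% to 75.0%. At a looser threshold, the 95th percentile, Lmo2 and Nkx2-1 passed in tumor 1, where 14.7% of all genes did, and Nkx2-1 passed in tumors 3 and 4, where 21.7% and 19.7% did. No other gene of the 10 passed that threshold in any library. The call also depends on the background genes. Against the 99th percentile of 140 genes for hair keratin-associated proteins, bitter taste receptors and beta-defensins (Krtap, Tas2r and Defb), Nkx2-1 passed in tumors 1 to 6 and 8, Lmo2 in tumors 1 and 5, Lyl1 in tumor 3 and Hhex in tumor 8. Among all genes 24.1%, 20.8%, 24.4%, 20.4%, 29.8% and 35.2% passed this threshold in tumors 1 to 6 and 10.6% in tumor 8. The authors' TPM, which can be compared between genes, put Nkx2-1 first in tumors 1 to 6, with a median of 0.563 TPM. Mef2c followed at 0.381, Lmo2 at 0.284, Lyl1 at 0.110, Hhex at 0.0987, Hoxa9 at 0.0920, Lmo1 at 0.0617, Tal1 at 0.0566, Tlx1 at 0.0413 and Tlx3 at 0.0340 TPM. Of the 9 pairs of neighbours in this order, 0 differed beyond their spread over the 6 tumors (exact sign-flip permutation test on log2(TPM + 0.1), smallest p = 0.0938, adjusted 0.375, where 0.0312 is the smallest possible). The order is thus not resolved between neighbours.

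Tal1, the helix-loop-helix factor most often switched on in human T-ALL and otherwise needed in blood stem cells and red cells, had few counts in tumors 1 to 6. It lies on mm10 chromosome 4, 115056426 to 115071755, plus strand. Its estimated counts were 21, 10, 5, 9, 0 and 1 in tumors 1 to 6, 41, 69 and 73 in tumors 7 to 9, and 83, 62 and 65 in the controls. The 0 in tumor 5 allows up to 0.0863 CPM, which is what 3 counts are worth there and covers counting error only. In the controls these counts were a density of 1.64 to 1.90 CPM per kilobase, close to the receptor-gene median, and cannot be told apart from background.

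Lyl1, the relative of Tal1 that drives immature T-ALL, had 12, 8, 33, 6, 14 and 7 counts in tumors 1 to 6, 12, 29 and 35 in tumors 7 to 9, and 34, 37 and 18 in the controls (mm10 chromosome 8, 84701457 to 84704715, plus strand). Tumor 3 was the highest of tumors 1 to 6. There the gene reached 0.887 CPM per kilobase, above 94.6% of the receptor genes but under the 95th percentile of 0.955, and 0.323 TPM. Scaled by TMM, tumor 3 was at 4.07 CPM, above the other tumors and the controls. Without TMM it was not: at 1.60 CPM it lay below tumors 8 and 9, at 2.13 and 3.01 CPM. The controls were then at 2.21 to 4.24 CPM. Exons of Lyl1 overlap an exon of Nfix on the opposite strand, although the transcripts share 0 words of 31 bases with those of any other gene.

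Of the LIM-domain adaptors, Lmo2 had its highest TMM-scaled level in tumor 1, and neither was above background there. Lmo2 (mm10 chromosome 2, 103957986 to 103981878, plus strand) had 109 counts in tumor 1 and 17, 11, 10, 25 and 6 in tumors 2 to 6. It had 22, 29 and 61 counts in tumors 7 to 9 and 31, 35 and 22 in the controls. Scaled by TMM, tumor 1 was at 11.7 CPM, and the other tumors lay between 0.382 and 2.22 CPM, as did the controls, at 0.890 to 1.27 CPM. Scaled this way tumor 1 lies above the other 8 tumors and the controls, which overlap. Without TMM it does not: tumor 9 was higher, at 5.25 CPM against 4.44 CPM in tumor 1, and control 2 was at 4.01 CPM. A gene was to be called standing apart in a tumor where it was above background, at 5 TMM-scaled CPM or more and at 8 times its median over tumors 1 to 6. By this rule 0 of the 10 genes stood apart in any tumor, also with library totals or TPM as the level. The density of Lmo2 in tumor 1, 2.60 CPM per kilobase (3.08 in tumor 9), was above 97.3% of the receptor genes and 98.2% of 113 developmental transcription factor genes of other tissues. It was 0.432 times the 99th percentile of the receptor genes.

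The Lmo2 counts were split by kallisto, the authors' quantifier, over 8 transcripts that differ mainly in their first exon. In tumor 1, 105.2 of the counts were assigned to Lmo2-208, which starts in the distal first exon (chromosome 2, 103957995 to 103958083). Of the other 7 transcripts, Lmo2-207 starts in the same exon, at 103957986, and the rest start downstream of it. The same transcript took 11 counts in tumor 3 and 25 in tumor 5, and 0 in tumor 4. In tumors 7 to 9 it took 0, 2.6 and 0, and in the controls 27.2, 19.5 and 5.7. These are estimates that share reads among transcripts, so use of the distal start was not measured directly. Lmo1, on chromosome 7 (109138572 to 109175207, minus strand), had 9, 4, 0, 7, 0 and 1 counts in tumors 1 to 6, 4, 40 and 31 in tumors 7 to 9, and 30, 19 and 30 in the controls. Its 0 counts allow up to 0.145 CPM in tumor 3 and 0.0863 CPM in tumor 5.

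The TLX homeobox genes had the lowest median TPM of the 10 in tumors 1 to 6, in an order that is not resolved; without tumor 1, 2 or 4 Lmo1 had the lowest. Tlx1, which builds the spleen and is switched on by translocation in human T-ALL, had 5, 3, 6, 3, 0 and 0 counts in tumors 1 to 6, 21, 65 and 32 in tumors 7 to 9, and 42, 29 and 32 in the controls (chromosome 19, 45150680 to 45156943, plus strand). Tlx3, which acts in sensory neurons, had 5, 3, 2, 7, 0 and 0, against 12, 50 and 31 in tumors 7 to 9 and 18, 22 and 11 in the controls (chromosome 11, 33200752 to 33203589, minus strand). Both were at 0 in tumors 5 and 6, where 3 counts are worth 0.0863 and 0.163 CPM. The transcripts of Tlx1 and Tlx3 share 1 word of 31 bases, so reads of one are hardly counted for the other. Both genes were highest in tumor 8, at 2.75 TMM-scaled CPM for Tlx1 and 2.12 for Tlx3.

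Hoxa9, a homeobox gene of blood stem cells that is raised in T-ALL with HOXA rearrangements, had 21, 10, 6, 8, 8 and 2 counts in tumors 1 to 6 (chromosome 6, 52223100 to 52231089, minus strand). It had 55, 112 and 97 counts in tumors 7 to 9 and 134, 86 and 66 in the controls. The TMM-scaled level of Hoxa9 was between 0.127 and 2.24 CPM in tumors 1 to 6, between 3.18 and 4.74 in tumors 7, 8 and 9, and between 2.67 and 4.44 in the controls. Tumors 1 to 6 lay below all controls, as they also did for Tal1, Tlx1 and Mef2c, a pattern that 26.7% of 36387 genes with at least 10 counts in 3 libraries showed; tumors 7 to 9 overlapped the controls. In 0 of the 10 genes did tumors 1 to 6 lie above all controls, beside 22.6% of those genes. Hoxa9 includes the microRNA gene Mir196b, with which it shares 55 of its 31-base words.

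Hhex, a homeobox gene of early blood, endothelium and B cells that is a target of LMO2 in mouse thymocytes, had 25, 10, 7, 8, 1 and 2 counts in tumors 1 to 6, 40, 124 and 86 in tumors 7 to 9, and 89, 57 and 66 in the controls (chromosome 19, 37434810 to 37440731, plus strand). In tumor 1, where Lmo2 was highest, Hhex was at 2.67 TMM-scaled CPM, inside the 2.07 to 2.95 CPM of the controls. Its density there was above 86.5% of the receptor genes, the highest of its values in tumors 1 to 6.

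Mef2c, which acts in muscle, B cells and early progenitors, had 64, 58, 33, 64, 10 and 5 counts in tumors 1 to 6, 220, 200 and 271 in tumors 7 to 9, and 283, 248 and 227 in the controls (chromosome 13, 83504034 to 83667080, plus strand). Its high counts go with its length, 6277 bases in the longest of 31 transcripts. Per kilobase it was at 0.0432 to 0.423 CPM in tumors 1 to 6, above 64.4% to 89.5% of the receptor genes. Tumors 5 and 6 held the lowest TMM-scaled levels, 0.398 and 0.319 CPM, against 4.07 to 8.73 CPM in tumors 1 to 4 and 9.02 to 9.38 CPM in the controls.

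**Figure D2:**
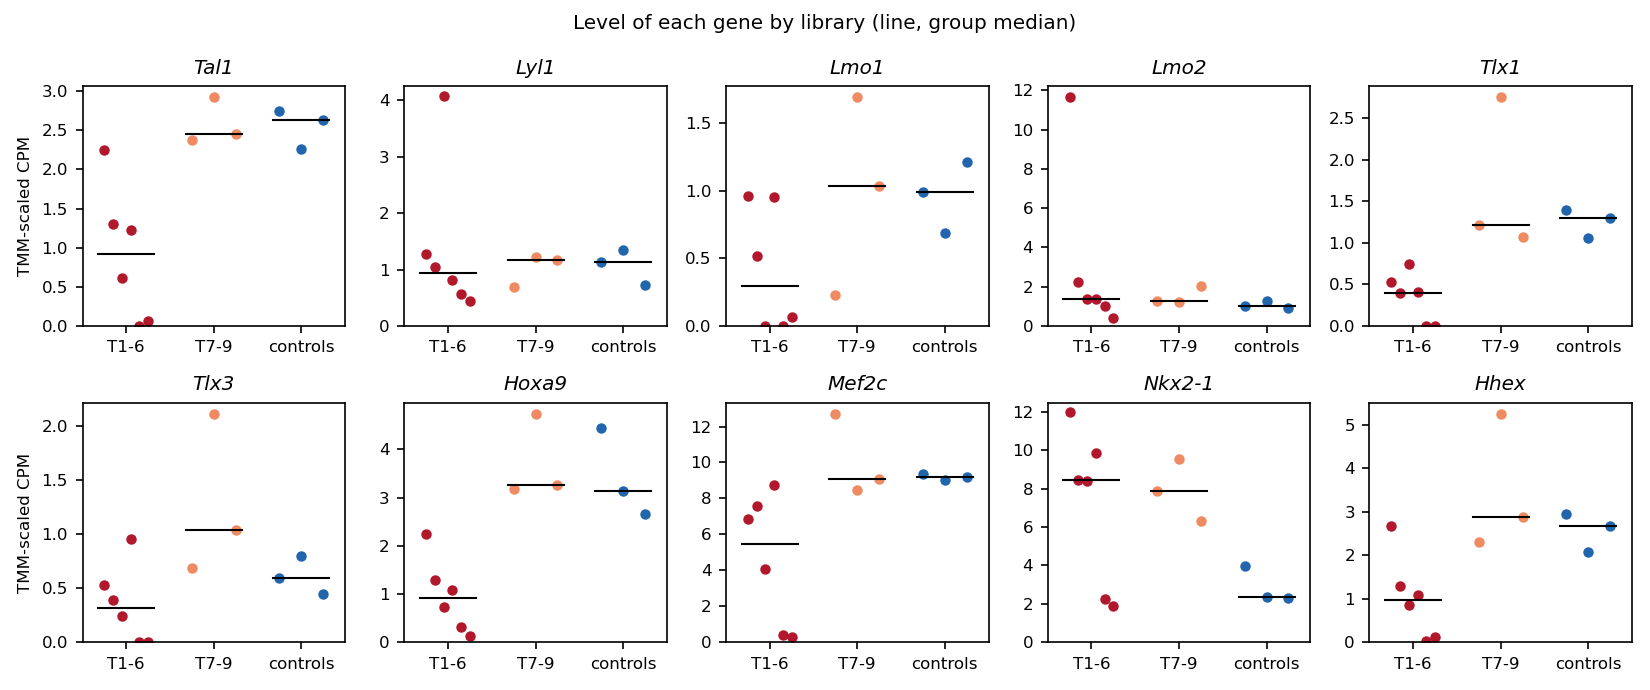
TMM-scaled CPM of each of the 10 genes, with 1 point for each library and a line at the median of tumors 1 to 6, tumors 7 to 9 and the controls. On this scale, but not without TMM, Lmo2 in tumor 1 (11.7 CPM) and Lyl1 in tumor 3 (4.07 CPM) stand off from the other tumors. The same holds for Nkx2-1, where tumors 7 to 9 lie above all controls.

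Nkx2-1, a homeobox factor of lung and thyroid that is switched on in a small set of human T-ALL, had the most counts of the 10 genes in each of tumors 1 to 6. It had 112, 65, 68, 72, 57 and 30 counts in tumors 1 to 6, 136, 225 and 189 in tumors 7 to 9, and 120, 65 and 57 in the controls (chromosome 12, 56531958 to 56536908, minus strand). Scaled by TMM it lay at 12, 8.47, 8.40, 9.83, 2.27 and 1.91 CPM in tumors 1 to 6, at 7.86, 9.52 and 6.34 CPM in tumors 7 to 9, and at 3.98, 2.36 and 2.31 CPM in the controls. On this scale tumors 1 to 4 and 7 to 9 were above all controls, and tumors 5 and 6 were below them. Without TMM all of tumors 1 to 6, at 1.60 to 4.55 CPM, lay below the lowest control, control 3 at 7.02 CPM. Tumors 8 and 9 were then still above all controls, at 16.6 and 16.2 CPM. Tumor 7, at 7.90 CPM, was below control 1.

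The counts of Nkx2-1 were uneven over its transcripts and its sequence is in part shared. Nkx2-1-202 took 97.8, 64.6, 67.7, 72.1, 56.6 and 29.5 counts in tumors 1 to 6. Nkx2-1-201, which differs by an upstream first exon of 600 bases (56536309 to 56536908), took 13.9 counts in tumor 1 and 0 in tumors 2 to 6. The last exon of both holds, in the 3′ untranslated region, a run of 137 bases (56532741 to 56532877) rich in a CTT triplet repeat, whose 31-base words occur in transcripts of 229 other genes. Part of it is shown because reads from any copy of such a repeat could be counted for the gene; each unit of the repeat is in capitals, and this stretch (GRCm38 chromosome 12, 56532846 to 56532875, minus strand) holds nothing else.
Nkx2-1 repeat: CTTCTTCTTCTTCTTCTTCTTCTTCTTCTT

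Of 231 genes that share a word with Nkx2-1, 197 had at least 10 counts in 3 libraries, and 0 of the 196 tested passed in tumors 7 to 9 against the controls. Of the 197, 34.0% had all of tumors 7 to 9 above all controls in TMM-scaled CPM, against 7.54% of 36387 genes with at least 10 counts in 3 libraries. Their median log2 fold change was 0.54, with 170 of 196 tested above 0, against a median of -0.0061 over all genes tested. Dlx6, a homeobox gene of limb and forebrain that shares the most words with Nkx2-1, 37, had densities of 11.2, 13.1, 5.81, 5.23, 1.52 and 3.06 CPM per kilobase in tumors 1 to 6. In tumors 7 to 9 Dlx6 was at 33.2, 102 and 85.1, and in the controls at 77.3, 46.4 and 46.3. It exceeded the 99th percentile of the receptor genes in tumors 1 to 4 and 7 to 9 and in control 1. Among all genes 4.02%, 5.39%, 11.3% and 8.56% were above background in tumors 1 to 4. The share was 1.21%, 1.36% and 1.32% in tumors 7, 8 and 9 and 1.37% in control 1. Some receptor genes of the background share words with Nkx2-1 too. Olfr1039 shares 33, and its 6.02 CPM per kilobase in tumor 1 is the 99th percentile of the receptor genes there. The words were compared after the data were seen. Their part in the Nkx2-1 values and in the background was not tested.

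**Figure D3:**
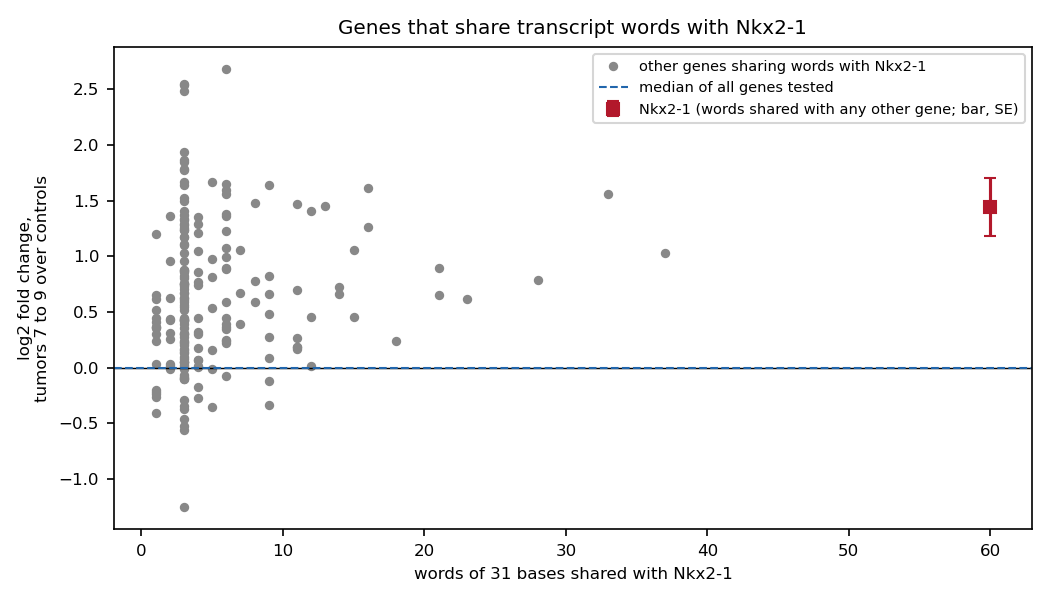
Log2 fold change of tumors 7 to 9 over the controls against the number of 31-base words shared with Nkx2-1, for 196 tested genes (grey), with Nkx2-1 itself (square, bar for 1 standard error) and the median of all genes tested (dashed). Most of the genes lie above 0, as does Nkx2-1 at 1.44.

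Tested across all genes, none of the 10 passed in the tumors against the controls. In edgeR's quasi-likelihood test of 40484 genes, 0 of the 10 were higher and 0 lower at a Benjamini-Hochberg adjusted p below 0.05, where 0.0% of all genes were higher and 0.00494% lower. At an unadjusted p below 0.05 there were 7297 genes, and DESeq2 called 10.1% of genes higher and 0.131% lower with 0 of the 10 among them. The log2 fold changes of the 10, tumors over controls, ran from -0.84 for Hoxa9 to 1.35 for Nkx2-1, with a median of -0.49 beside -0.45 over all genes. Their edgeR adjusted p ran from 0.219 to 0.945. Lmo2 was at 1.22 with a standard error of 0.873, and at 0.35 without tumor 1.

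The libraries closer in background, tumors 7 to 9 and the controls, gave no call among the 10 in a test of 36420 genes, where edgeR called 0.0247% of genes higher and 0.0247% lower. Nkx2-1 came closest, with a log2 fold change of 1.44, a standard error of 0.259 and an edgeR adjusted p of 0.139. Its adjusted p was 7.82e-04 in DESeq2, which called 0.758% of genes higher and 0.255% lower, and ran from 7.82e-04 to 0.582 over the alternatives. In TMM-scaled CPM it was the only one of the 10 with all of tumors 7 to 9 above all controls, a pattern that 7.54% of genes showed. On that scale 0 of the 10 had them below, beside 6.96%. Without TMM, Nkx2-1 in tumor 7 was below control 1. The other 9 had log2 fold changes of -0.047 to 1.05. The median of the 10 was 0.27 beside -0.0061 over all genes, and in this bulk tissue fewer cells of a type and less RNA per cell cannot be told apart.

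In tumors 1 to 6 against the controls, 0 of the 10 were higher and 1, Hoxa9, was lower, where edgeR called 19.6% of 38534 genes higher and 20.3% lower. For Hoxa9 the log2 fold change was -2.20 (standard error 0.691, edgeR adjusted p = 0.0236). DESeq2, which called 19.4% of genes higher and 34.7% lower, had 4 of the 10 lower (Hoxa9, Tlx1, Hhex and Tal1) and 0 higher. The edgeR call of Hoxa9 was lost when any 1 control was left out, with an adjusted p up to 0.107 over the alternatives. Of 1773 receptor genes tested, 851 were lower too, with a median log2 fold change of -2.18. The drop of Hoxa9 is thus of the size seen in genes that thymocytes are not known to use, and it cannot be told apart from the difference in background. The median of the 10 was -1.52 beside -1.29 over all genes. Nkx2-1, at 0.93, and Lmo2, at 1.11, were the only ones with a log2 fold change above 0, and neither passed, with edgeR adjusted p of 0.155 and 0.295.

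RNA for proteins that TAL1, LYL1 and LMO factors bind was above background in tumors 1 to 6. Of 15 genes for such partners and for the circuit around them, 9 were above background in at least 4 of tumors 1 to 6, beside 14.6% of protein-coding genes. In the fit against the controls 10 of the 15 rose and 0 fell, beside 19.6% and 20.3% of all genes, with a median log2 fold change of 2.20 beside -1.29 over all genes. Tcf12, an E protein that pairs with TAL1, was at 19.8 to 93.0 TPM in these tumors. It rose by 4.02 on the log2 scale (standard error 0.479, edgeR adjusted p = 4.05e-05). Myb, a factor of growing progenitors, was at 11.2 to 52.0 TPM and Runx1, a partner in the TAL1 circuit, at 4.21 to 32.3 TPM. Both rose, by 4.96 and 3.91 on the log2 scale (edgeR adjusted p = 1.95e-05 and 3.27e-05). Ssbp2, which steadies LDB1, was at 18.5 to 73.1 TPM but also above background in all 12 libraries, with a log2 fold change of -0.70 (edgeR adjusted p = 0.134). Direction and composition cannot be told apart in these 4 results, and in tumors 7 to 9 against the controls 0 of the 15 passed.

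**Figure D4:**
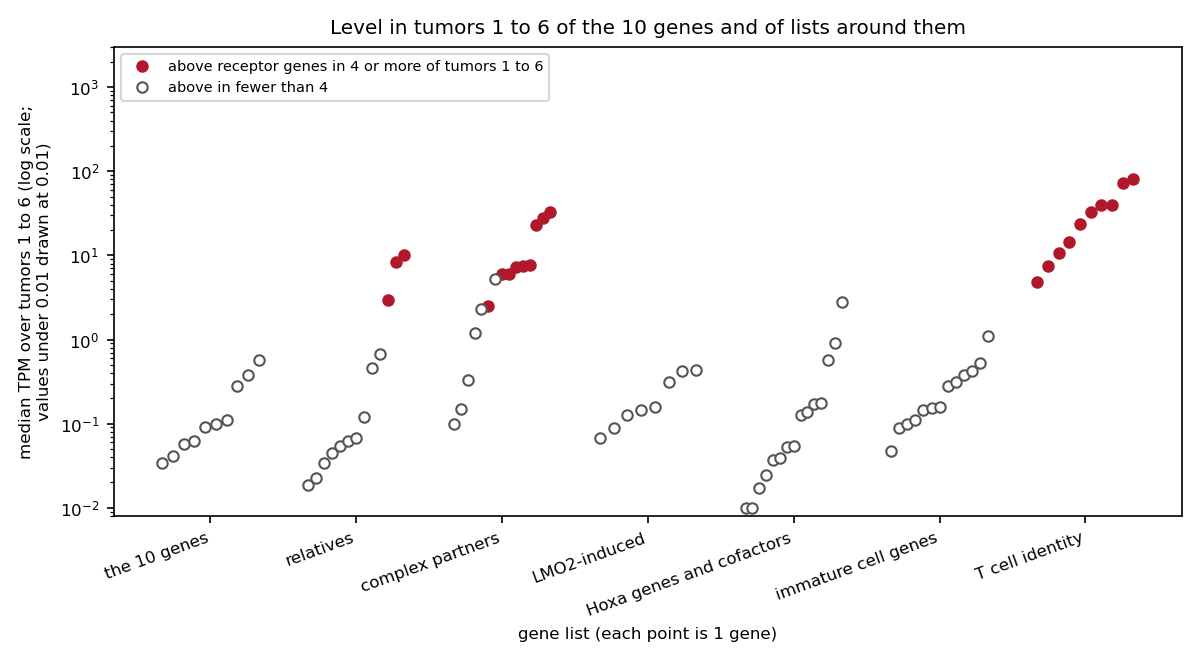
Median TPM over tumors 1 to 6, on a log scale, of each of the 10 genes and of genes in 6 lists around them, with 1 point for each gene. Filled points were above the receptor genes in at least 4 of tumors 1 to 6; there are none among the 10 genes, 9 among 15 complex partners and 10 among 10 T cell identity genes.

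Of 13 relatives of the 10 genes, 3 were above background in at least 4 of tumors 1 to 6, beside 14.6% of protein-coding genes. They belong to the LMO and MEF2 families. Lmo4, a LIM-domain adaptor found in many tissues, was at 3.23 to 47.1 TPM, Mef2a at 3.29 to 22.1 TPM and Mef2d at 0.914 to 6.45 TPM. Against the controls 2 of the 13 rose, Lmo4 by 4.43 and Mef2d by 3.00 on the log2 scale (edgeR adjusted p = 3.36e-04 and 9.33e-05), and 1 fell, beside 19.6% and 20.3% of all genes. Mef2a did not pass, at 1.15 (edgeR adjusted p = 0.0652).

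Genes that usually accompany the 10 were mostly at background. Of 8 genes raised in thymocytes of Lmo2 transgenic mice or tied there to LMO2 and LYL1, 0 were above background in any of tumors 1 to 6, tumor 1 included. The same held for 13 genes of early thymic progenitors and immature T-ALL. That list overlaps the one before and includes Lmo2, Lyl1, Hhex and Mef2c of the 10 themselves, so its result is in part the same result. Among protein-coding genes 31.9% were above background in at least 1 of the 6. Of 15 genes of the Hoxa cluster and its cofactors, 0 passed in at least 4 tumors, and 13 passed in none of the 6. In the fit of tumors 1 to 6 against the controls, 0, 0 and 1 of these lists' genes rose and 2, 2 and 3 fell, beside 19.6% and 20.3% of all genes, with medians of -1.17, -1.07 and -1.70 beside -1.29 over all genes.

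Other cell types in thymus also use these factors, and their markers were mostly at background. Of the erythroid, megakaryocyte, mast cell and B cell markers, 0 of 10, 0 of 6, 0 of 7 and 0 of 8 were above background in any of tumors 1 to 6. Among protein-coding genes 31.9% were above it in at least 1 of these tumors. Their summed levels there were 3.15 to 14.7, 2.43 to 9.12, 2.84 to 17.2 and 11.3 to 37.8 TMM-scaled CPM, against 10.7 to 24.0, 8.73 to 11.3, 13.3 to 16.4 and 49.7 to 57.6 in the controls. Endothelial markers passed for 1 of 8, Pecam1, an adhesion protein that lymphocytes carry too, which was at 23.9 to 191 TPM; the other 7 were above background in none of the 6. Of 11 macrophage and dendritic cell markers, 2 passed in at least 4 of tumors 1 to 6, Lyz2 at 1.88 to 15.2 TPM and Cd74 at 2.98 to 21.6 TPM. Of 7 thymic epithelial markers, 1 passed, the chemokine Ccl25 at 1.46 to 7.68 TPM. Beside these counts, 14.6% of protein-coding genes passed in at least 4 of tumors 1 to 6. Summed levels of the endothelial, macrophage and dendritic, and epithelial markers were 183 to 1155, 102 to 274 and 30.1 to 51.3 TMM-scaled CPM there. The controls had 44.9 to 94.4, 50.9 to 57.7 and 28.6 to 39.3. Among these markers 1, 4 and 1 rose and 2, 0 and 2 fell in tumors 1 to 6 against the controls. The endothelial marker that rose was Pecam1, by 4.13 on the log2 scale. The median log2 fold changes of the 3 lists were -1.47, 0.87 and -1.23, beside -1.29 over all genes. Of all genes 19.6% rose and 20.3% fell. The part of these cells in the levels of the 10 genes was not tested.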

How the data were processed

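Polyadenylated RNA of 9 tumor and 3 control thymus libraries was sequenced as paired ends per the labels' protocols. Each file holds the estimated count of 128622 transcripts as deposited by the authors, per the file headers. A TPM value stands beside each, also deposited. kallisto, FastQC and mm10 are named in the submitters' processing notes. For these, versions and an annotation release were not given in the sources used here. Coordinates, exons and transcript sequences came from GENCODE M21 of GRCm38 (mm10), which holds 51633 of the 51826 gene identifiers.

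Estimated counts were summed by symbol and rounded. Unscaled, 1 count was worth between 0.0288 and 0.0861 CPM in the tumors and between 0.0832 and 0.123 CPM in the controls, which limits the precision. The tests were edgeR 4.0.16 (quasi-likelihood, TMM, filterByExpr), with DESeq2 1.42.0 and limma 3.58.1 as alternatives, in R 4.3.3. Adjusted p below 0.05 over all genes tested was the threshold. Fold changes are tumor over control. The edgeR fit was tested on simulated counts.

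The 10 genes, the 14 other lists, the tests and the comparison of tumors 7 to 9 with the controls were chosen with earlier results of these data known. Named were Il7r, the 10 genes, and from each other list up to 4 genes with the highest median TPM in tumors 1 to 6 among those above background in at least 4 of them, 15 in all. Dlx6, Nfix and Mir196b were named after their values were seen or for shared sequence. The rule also asked for genes with a profile like that of a member above background in several tumors; 0 members qualified, so none are named. No protein sequences were used here.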

Additional observations from a re-analysis of the deposited data

Results flagged for a closer look

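In each of the 10 genes, 1 tumor far from the others was looked for in TMM-scaled CPM over the 9 tumors and in CPM per kilobase over tumors 1 to 6, by the gap to the nearest other tumor as a share of the range. Of 20 groups, 6 had such a tumor. Chance gives about 1 in 20 independent groups. Each gene enters on both scales with shared libraries, so the groups are not independent and the 6 cannot be set against that rate. Lmo2 in tumor 1 was at 11.7 TMM-scaled CPM, with the next tumor at 2.22, and at 2.60 CPM per kilobase, with the next at 0.456. Lyl1 in tumor 3 was at 4.07 TMM-scaled CPM, with the next tumor at 1.28, and at 0.887 CPM per kilobase, with the next at 0.272. Without TMM, Lmo2 was higher in tumor 9, at 5.25 CPM against 4.44 CPM in tumor 1. Lyl1 was then higher in tumors 8 and 9, at 2.13 and 3.01 CPM against 1.60 CPM in tumor 3. In tumor 8, Tlx1 was at 2.75 TMM-scaled CPM, with the next tumor at 1.21, and Tlx3 at 2.12, with the next at 1.04. None of these levels was above the 99th percentile of the receptor genes in its library.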

How the results depend on the processing

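The count of the 10 genes above background was 0 in all 12 libraries under the other settings (no count minimum, TPM, highest receptor gene, no pseudogenes, developmental genes), with these exceptions. At the 95th percentile it was 2 in tumor 1 and 1 in tumors 3 and 4. With Krtap, Tas2r and Defb genes as background it was 2 in tumors 1, 3, 5 and 8 and 1 in tumors 2, 4 and 6. The Il7r difference was 1.74 with library totals and 1.03 on log2(TPM + 1), where it missed the threshold, and 3.10 to 3.90 with 1 library left out; it also missed it when any 1 control was left out (3.46 to 3.59).

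For tumors against controls, all genes called higher and lower numbered 4079 and 53 in DESeq2, 93 and 32388 in limma on TPM, and 7564 and 7822 without tumors 7 to 9; with the receptor-gene share as a covariate 0 were lower, and 0 to 3 were with 1 library left out (0 without controls 2 or 3 or tumors 1, 2, 4 or 7). Of the 10 genes limma called 8 lower, and 1 was lower without tumors 7 to 9. For tumors 7 to 9 the counts were 63 and 295 with library totals, 20 and 17 under a stricter filter, 276 and 93 in DESeq2, 126 and 1466 in limma, and 1 to 250 and 0 to 39 with any 1 library left out (250 and 24 without control 3, 40 and 39 without control 1); DESeq2 called 1 of the 10 higher, Nkx2-1. For tumors 1 to 6, genes higher were 1653 with library totals and 637 in limma. Genes lower were 28807 and 32634 there, 12574 with RLE factors, 13365 in DESeq2 and 2553 to 11347 with 1 library left out, at most 3197 of them without a control. Of the 10, 9 were lower with library totals, 4 in DESeq2, 10 in limma and 0 to 2 with 1 library left out (0 without any control, 2 without tumor 1).

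Some log2 fold changes turned round. Over all tumors Lmo2 was at -0.82 with library totals and -1.28 in limma, Nkx2-1 at -0.35 and -0.68, and Hoxa9 at 0.51 with the covariate. In tumors 7 to 9 Tlx3 was at -0.0082 in limma and Lyl1 at -0.24 to 0.16 with 1 library left out. In tumors 1 to 6 Lmo2 was at -1.37 and -1.62 with library totals and limma, and -0.12 to 1.29 with 1 library left out (-0.12 without tumor 1), and Nkx2-1 at -1.54 and -1.18. Library totals moved the median of all genes over all tumors to -1.83, against -0.45 with TMM. The cause of these changes was not tested.

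The replicate numbers do not pair the libraries: deviations of tumors and controls 1, 2 and 3 from their group means correlated at -0.070, 0.045 and -0.064. With the replicate number as a block, in tumors 1 to 3 and controls 1 to 3, edgeR called 8085 of 35986 genes higher and 1824 lower. In the same libraries without it, 8709 and 3566 were called. Lmo2 and Nkx2-1, 2 of the 10, were higher both with the block and without it. These 2 stand beside the 8085 and 8709 of 35986 genes, and composition cannot be told apart from group in these libraries.

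Depth limits what the 10 genes show: at 0 counts up to 0.163 CPM is allowed in tumor 6.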

Other observations

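Some genes of the lists, chosen here after their values were seen, were above background in 1 to 3 of tumors 1 to 6. Among protein-coding genes 31.9% were above it in at least 1 of these tumors. Differences of tumors 1 to 6 from the controls cannot be told apart from composition here either. Mef2b, a MEF2 relative of germinal center B cells, was above background in 1 of the 6. Its TMM-scaled level was between 0.748 and 17.8 CPM there, between 0.520 and 2.07 CPM in tumors 7, 8 and 9 and between 0.850 and 1.09 CPM in the controls. Id2 and Id3, which like TAL1 keep E proteins from their targets, were each above background in 1 of the 6. Id2 was between 3.70 and 16.9 TMM-scaled CPM in tumors 1 to 6, between 1.41 and 2.02 in tumors 7, 8 and 9 and between 1.53 and 1.92 in the controls. On that scale 22.6% of 36387 genes with at least 10 counts in 3 libraries had tumors 1 to 6 above all controls. Id3 lay at 0.956 to 7.91, 1.31 to 1.52 and 1.35 to 2.32 CPM in the same groups. Pbx2 and Pbx3, which bind DNA together with HOX proteins, were above background in 2 and 1 of the 6, at 1.58 to 8.10 TPM and 0.081 to 6.43 TPM in tumors 1 to 6.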
